A study of Schizosaccharomyces pombe with 8 samples.

Results

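The genes described here act in meiotic recombination, the meiotic divisions and spore formation of the fission yeast Schizosaccharomyces pombe. They were taken by symbol: every gene named rec, meu, spo or mcp with a number, and 8 genes named one by one (isp3, dmc1, hop1, mek1, mfr1, mes1, moa1 and bgs2). The RefSeq gene table of the assembly ASM294v3 held 61 such genes, and 54 of them were among the 4940 genes on the arrays. The other 7 were not analysed here; 5 of them (meu3, meu11, meu16, meu19 and meu20) are listed as long non-coding RNAs, and the others are spo2 and spo13. By general knowledge, 18 of the 54 were taken as early (recombination, chromosome axis, pairing and movement of the nucleus in prophase), 13 as late (divisions, forespore membrane and spore wall) and 5 as genes that also act in growing cells, and for 18 no stage was given. The symbol rule also took mcp60, the mitochondrial chaperonin Hsp60, which shares only the prefix.

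Transcript signal was measured on 1-colour NimbleGen arrays, with 2 arrays for each of 4 strains, each array from a separate culture. All strains were of mating type h+ and carried leu1-32 and ura4-D18. The wild type was PR110, and the disruptants were YMP37 (Δpka1, pka1::ura4), YMP41 (Δcgs1, cgs1::ura4) and OG1 (Δppt1, ppt1::kanMX6). Cells were grown for 8 h in 50 mL of YES, a rich medium, at 30 °C and were in logarithmic growth, so these are transcripts of growing cells and not of cells in meiosis.

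Fission yeast enters meiosis when nutrients run out and both mating types are present in a diploid cell. The cAMP-dependent protein kinase PKA, whose catalytic subunit is Pka1 and whose regulatory subunit Cgs1 holds it inactive, signals that glucose is present and restrains the transcription factor Ste11. Ste11 drives mei2, and the RNA-binding protein Mei2 starts meiosis once the kinase Pat1 no longer holds it in check. Early genes make and repair the programmed DNA breaks of recombination and build the meiotic chromosome axis. Late genes act in the meiotic divisions and build the spore, and many of those for the divisions are turned on by the transcription factor Mei4. In growing cells the RNA-binding protein Mmi1 directs many meiotic transcripts to degradation.

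Signals are linear intensities of 1 value per gene, and 53 of the 54 members had 14 probes (rec27 had 4). A signal depends on the probes as well as on the transcript, so signals of different genes are given as a description, and an order of genes by signal is no order of transcript levels. On slides 1 and 2 the random-sequence control read 1193 and 1089 for wild type, 1127 and 821 for the arrays labelled Δpka1, 1268 and 984 for Δcgs1, and 1120 and 830 for Δppt1. The highest signal of a gene that read as deleted was 2497 (ppt1 in Δppt1), taken here as the background limit after the data were seen. It leaves out pka1, whose signal did not fall on its own disruptant's arrays. Replicate 1 of every strain lay on the same slide, with array medians from 21210 to 22148, and replicate 2 on another, with medians from 24677 to 25548. For the disruptants on slide 2, the position on the slide in the title is not the one in the name of the deposited table, and the strain recorded for the sample was used. Signals of cgs1 (1404 and 1360 where disrupted, 20232 and 28238 for wild type) and of ppt1 (2497 and 1910 where disrupted, 32691 and 41517 for wild type) followed the labels. Signal for pka1 did not: wild type read 28743 and 34715, and the arrays labelled Δpka1 read higher, 38387 and 46832. That pka1 is disrupted on those arrays therefore rests on the label, and so do directions drawn from them. Other signals set these arrays apart from each other strain. Signal for cgs1 on them was 46361 and 54252, not low as in Δcgs1, and ura4 was high, unlike in wild type and in Δppt1 (1307 and 1000). The marker ura4 read 1362 and 1627 for wild type, 39913 and 44787 for Δcgs1 and 32716 and 37383 for the arrays labelled Δpka1, so its presence and the disruption cannot be told apart where these strains are set against wild type. The mating-type markers did not tell P cells from M cells at this limit. The P-cell genes map2, map3 and map4 lay above it on all 8 arrays and map1 at or below it on 4, while the M-cell genes mam1, mam2, mam3 and mfm1 lay above it on all 8 and mfm2 at or below it on all 8.

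More early than late genes read at or below the background limit, a count that depends on the probes of each gene as well as on its transcript. It also depends on the limit, which rests on 1 reading, that of ppt1 on slide 1 of Δppt1. The slide 2 reading of ppt1 there was 1910. Where deleted and without the marker, cgs1 and ura4 read from 1000 to 1627, and a lower limit would change the counts. Of the 18 early genes, 10 (55.6%) read at or below the limit on at least 1 array and 3 (16.7%) on all 8. Of the 13 late genes, 2 (15.4%) did so on at least 1 array and 0 on all 8. Among all 4940 genes the shares were 4.37% and 1.66%. The difference between early and late genes was not tested, since the members were chosen with results known.

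**Figure D1:**
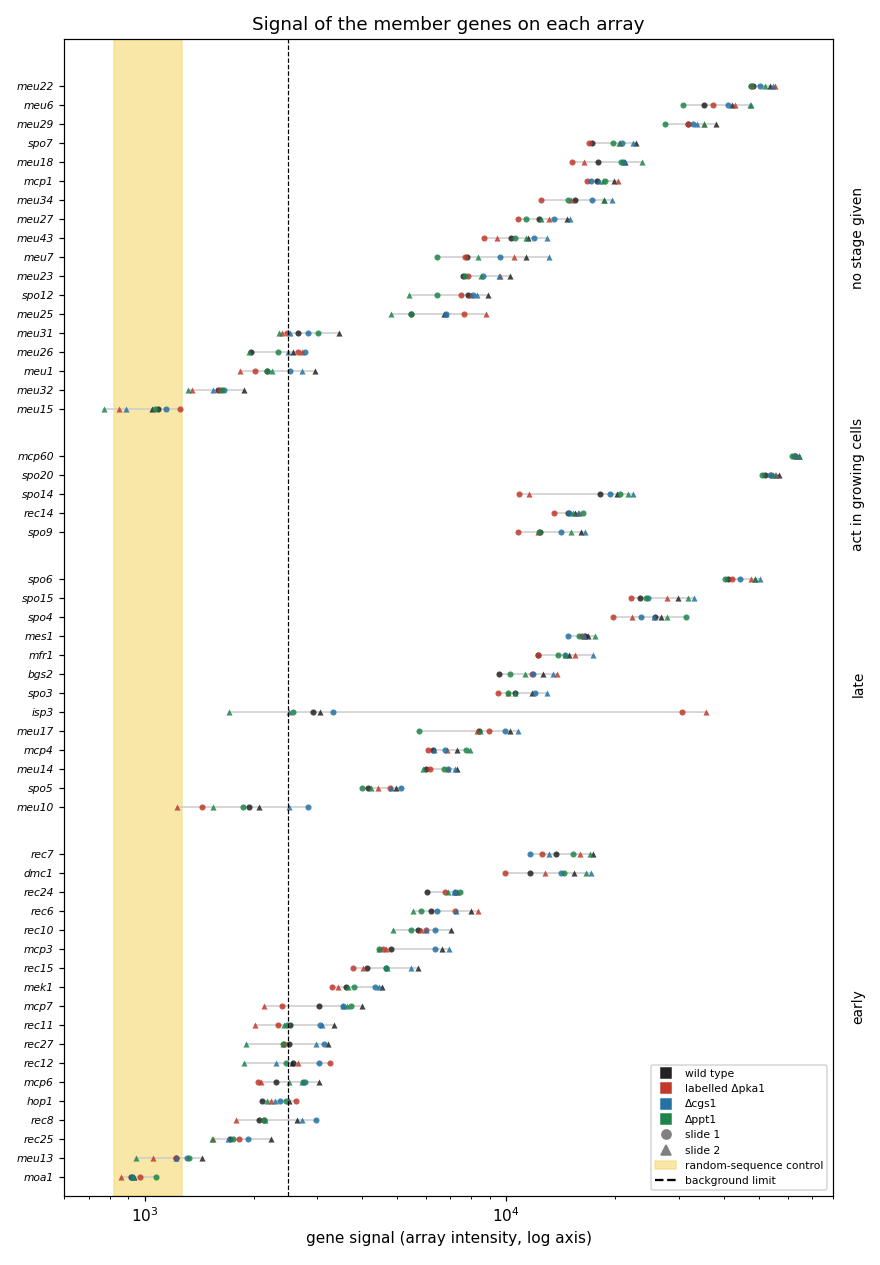
Signal of the 54 member genes (array intensity, log axis) on each of the 8 arrays, grouped by class and ordered by mean signal. Colours mark strains, circles slide 1 and triangles slide 2, the shaded band the range of the random-sequence control (821 to 1268) and the dashed line the background limit of 2497. Many early genes sit near the dashed line, most late genes lie to its right, and isp3 is the member whose strains lie farthest apart.

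The product of moa1 sets the attachment of sister centromeres in meiosis I. The gene had the lowest mean signal of the early class. It read from 858 to 1072 and lay at or below the random-sequence control of the same array on 6 of 8 arrays. Also near the control were meu13, the Hop2-type partner of recombination, from 945 to 1443, and rec25, a component of linear elements, the axis structures of fission yeast, from 1534 to 2235. These 3 genes read at or below the limit on every array, so no change in them could be sized in any strain.

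Genes of the same structures lay just around the limit. The meiotic cohesin genes rec8 and rec11 read at or below it on 5 and 4 arrays, and the axis genes hop1 and rec27 on 6 and 4. Signal for rec12, which encodes the Spo11-type enzyme that cuts the DNA, was at or below it on 3 arrays (from 1887 to 3253). The nuclear-movement gene mcp6 read from 2057 to 3034. By contrast, 8 of the 18 early genes lay above the limit on all arrays. These were mek1 (the kinase of the meiotic recombination checkpoint), mcp3, dmc1 (the meiotic strand-exchange protein), the axis gene rec10, and rec6, rec7, rec15 and rec24, whose products are needed to form the breaks. The highest mean signal of the class was that of rec7, from 11659 to 17410.

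Of the late genes, 11 of 13 lay above the limit on all arrays. The exceptions were isp3, on 1 array of Δppt1, and meu10. The highest mean signal was that of spo6, the regulatory partner of the kinase Spo4 in meiosis II, from 40208 to 50335. Signals of mfr1 (an activator of the anaphase-promoting complex, from 12217 to 17333) and mes1 (an inhibitor of it that allows meiosis II, from 14845 to 17621) lay above the limit by more than the whole spread between strains. The same held for bgs2, a glucan synthase of the spore wall, from 9531 to 13833, and spo15, a spindle pole body component needed for the forespore membrane, from 22090 to 33076. The labelled cDNA was double-stranded, so sense and antisense transcripts of a locus cannot be told apart. In bulk RNA, a few cells with high signal and a low signal in every cell cannot be told apart either.

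The 5 genes that also act in growing cells lay above the limit on all arrays. The lowest by mean signal was spo9, a prenyl diphosphate synthase gene, from 10778 to 16482. The highest was mcp60, from 61827 to 64541, within 10% of the highest value on every array, where differences are compressed. The remaining 18 genes spanned from meu15, which read from 771 to 1250 and lay at or below the random-sequence control on 6 arrays, to meu22, from 47473 to 55239. Among these 18, meu15 and meu32 read at or below the limit on all arrays.

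The arrays labelled Δpka1 were compared with wild type to ask which meiotic transcripts differ when PKA is disrupted in growing cells. The spore wall gene isp3 rose about 11-fold, and no other member differed from wild type by more than 1.71-fold in any disruptant, as measured. The secretory gene spo14, the recombination gene mcp7 and the spore wall gene meu10 fell. In limma's test across all genes (adjusted p below 0.05), 1 of 54 members was called higher and 3 lower, where 8.46% of all 4940 genes were called (4.33% higher and 4.13% lower). The share of members called was thus close to that of all genes. With slide as a block in the fit, 2 members were called higher and 11 lower, against 38.6% of all genes (14.7% and 24.0%). With cyclic loess normalization the split was 6 higher and 8 lower, where 905 of 4940 genes were called higher and 828 lower.

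Signal for isp3, which encodes a protein of the outer spore coat, was 2916 and 3057 in wild type. It was 30560 and 35703 on the arrays labelled Δpka1, 3317 and 2504 in Δcgs1, and 2567 and 1712 in Δppt1. Both arrays labelled Δpka1 lay far above the other 6, which stood close to the background limit. The log2 fold change against wild type was 3.47 (SE 0.22, adjusted p = 0.000212 by limma, n = 2 per strain), or 11.1-fold in mean signal, the rise of rank 14 among all genes. The difference was 3.39 on slide 1 and 3.55 on slide 2. The call held in all 17 alternative settings run, with log2 fold changes from 3.09 to 4.12 and adjusted p from 4.65e-34 (the trended robust fit) to 0.00267.

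Signal for spo14 was 18166 and 20266 in wild type and 10829 and 11575 on the arrays labelled Δpka1. The gene encodes a Sec12-type protein of transport from the endoplasmic reticulum to the Golgi, needed for growth and for the forespore membrane. It read 19303 and 22475 in Δcgs1 and 20691 and 21706 in Δppt1, so the arrays labelled Δpka1 were the lowest of all and did not overlap with any other strain. The log2 fold change against wild type was -0.78 (SE 0.11, adjusted p = 0.00818 by limma), with -0.75 on slide 1 and -0.81 on slide 2. Without replicate 1 of the arrays labelled Δpka1 it was -0.73 with an adjusted p of 0.0627, and over all 17 alternatives the adjusted p ranged from 0.000135 to 0.0627.

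Signal for mcp7, the Mnd1-type partner of Meu13 in recombination, was 3040 and 3997 in wild type and 2399 and 2135 on the arrays labelled Δpka1, at or below the limit. It read 3525 and 3542 in Δcgs1 and 3714 and 3625 in Δppt1, again with no overlap between the arrays labelled Δpka1 and any other strain. The fall was at least 1.40-fold (log2 -0.62, SE 0.14, adjusted p = 0.0450 by limma, and 0.0187 in the blocked fit). The call was lost in 10 of 17 alternatives, among them each fit without 1 array labelled Δpka1 (adjusted p = 0.113 and 0.195) and the fit without replicate 2 of wild type (0.128), with adjusted p from 0.000361 to 0.195 over the 17.

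Signal for meu10, needed for the maturation of the spore wall, was 1943 and 2074 in wild type and 1444 and 1225 on the arrays labelled Δpka1. Both strains lay at or below the background limit, so no fold is given (log2 -0.59, SE 0.14, adjusted p = 0.0493 by limma). The random-sequence control was also lower on the arrays labelled Δpka1 than in wild type, by 0.08 on the log2 scale on slide 1 and 0.41 on slide 2, against falls of 0.43 and 0.76 for meu10 and 0.34 and 0.90 for mcp7. The part of background in the falls of these genes was not tested. The call of meu10 was lost in 11 of 16 alternatives, including all 8 that left out 1 array, with adjusted p from 0.00111 to 0.21.

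**Figure D2:**
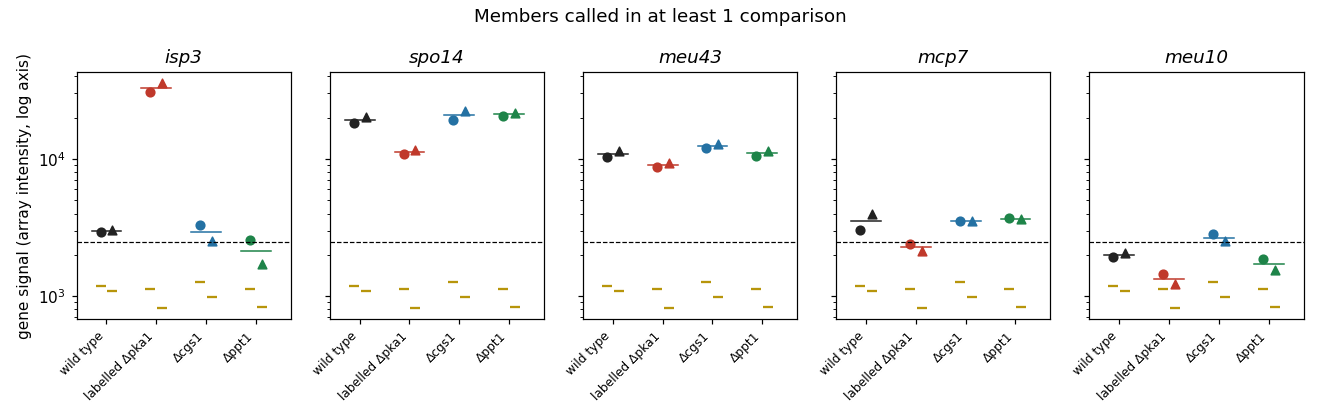
Signal (array intensity, log axis) of the 5 members called in at least 1 comparison, with 1 panel per gene, circles for slide 1, triangles for slide 2 and a line at the mean of each strain. Short gold dashes mark the random-sequence control of the same array and the dashed line the background limit. For isp3 both arrays labelled Δpka1 lie far above the rest, for spo14 and mcp7 they lie below all others, and meu10 lies near the limit on every array.

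With slide as a block, fitted because arrays of the same slide deviated together, 38.6% of all genes were called (14.7% higher and 24% lower). In that fit 9 more members were called. The higher one was meu25, at 5448 and 6721 in wild type and 7622 and 8764 on the arrays labelled Δpka1 (log2 0.43, SE 0.12 with the block). The lower ones were spo4, meu18, meu34, spo9, meu43, dmc1, spo3 and meu27, with log2 fold changes between -0.33 (spo4) and -0.18 (meu27). The kinase gene spo4 read 25808 and 26868 in wild type and 19741 and 22285 on the arrays labelled Δpka1, without overlap. Signal for dmc1 was 11618 and 15350 in wild type and 9931 and 12804 on the arrays labelled Δpka1; these ranges overlapped, although each slide showed a lower value. Adjusted p with the block lay between 0.00466 (meu43) and 0.0498 (meu27), and none of these 9 was called in the fit without it.

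Of the early genes, 1 of 18 was called lower and 0 higher on the arrays labelled Δpka1 (2 lower and 0 higher with slide as a block). Over all genes, 4.13% were called lower and 4.33% higher, and 24% and 14.7% with the block. At an unadjusted p below 0.05 there were 3 early genes, where 1129 of 4940 genes had such a p. The median log2 fold change of the early genes was -0.23, with 14 of 18 below 0. The median of late genes was -0.03, with 9 of 13 below 0, and that of all genes was -0.04, with 2937 of 4940 below 0. Within slides the median of early genes was -0.02 on slide 1, as for all genes, and -0.41 on slide 2, with 9 of 18 below 0 on both slides. The random-sequence control showed -0.08 and -0.41, and the 297 genes with a mean signal up to 5000 showed 0.01 and -0.40. The 12 early genes with a mean signal up to 5000 had a median of -0.24 and the 6 brighter ones -0.11. The part of background in the shift of the early genes was not tested. Quantile normalization brought the median of the early genes to -0.04. The median of the late genes turned above 0 with quantile normalization (0.000797) and cyclic loess normalization (0.0426). Over all 17 alternatives the late median ran from -0.166 to 0.0831, and the early median from -0.409 to -0.0366.

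**Figure D3:**
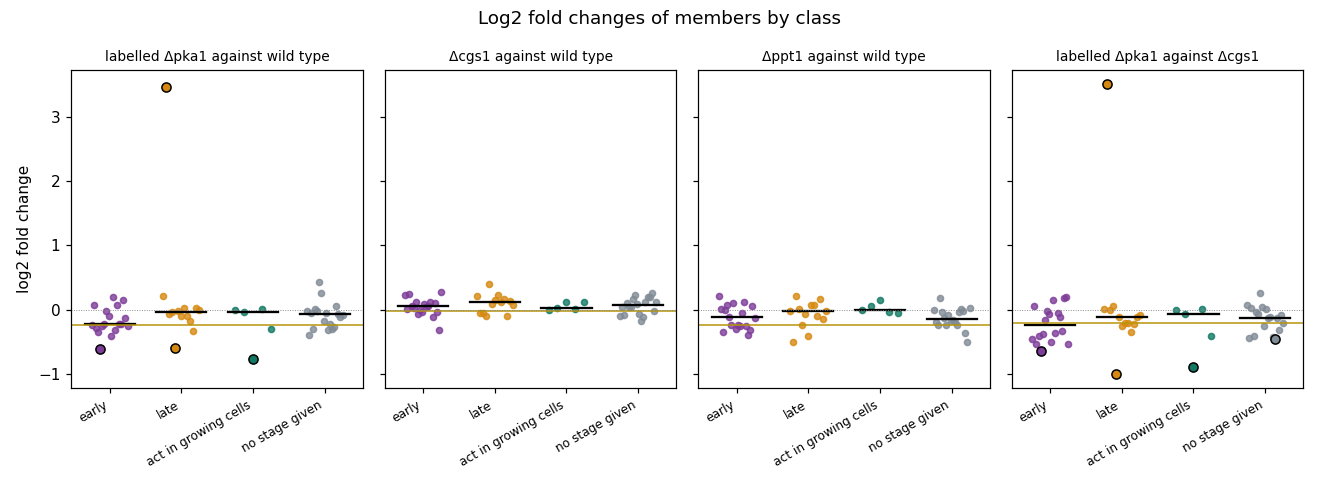
Log2 fold change of each member, by class, in the 4 comparisons. Black bars are class medians, gold lines the difference of the random-sequence control, and points with a black outline the members called in the fit without a slide block. The early medians lie below 0 at -0.23 and -0.25 in the comparisons with the arrays labelled Δpka1, and isp3 stands alone near 3.5.

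**Figure D4:**
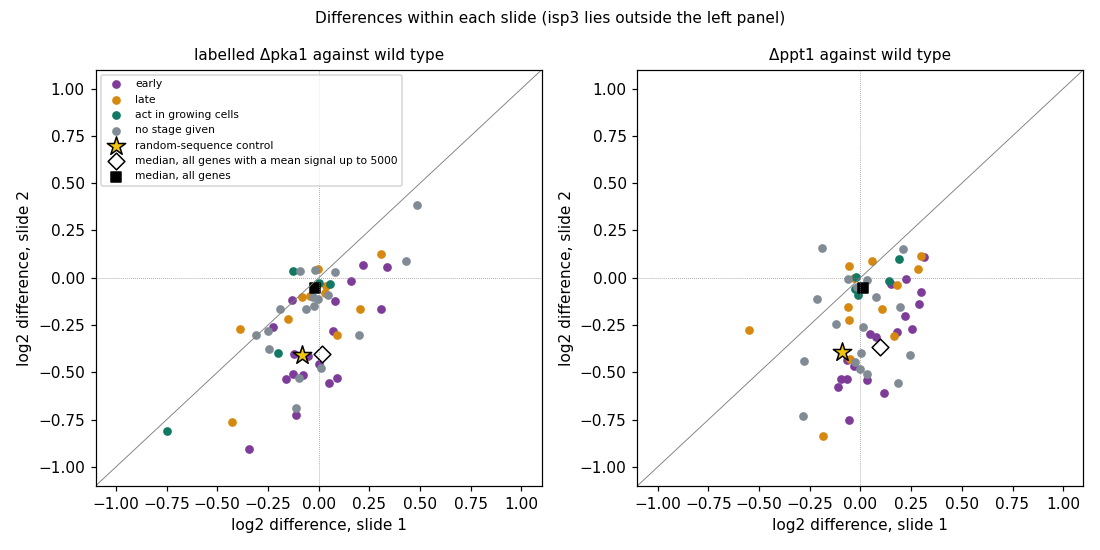
Log2 difference from wild type of each member on slide 1 (horizontal axis) and on slide 2 (vertical axis), for the arrays labelled Δpka1 and for Δppt1, with isp3 outside the first panel. The star is the random-sequence control, the diamond the median of genes with a mean signal up to 5000, and the square the median of all genes. Many early genes lie below the diagonal near the star and the diamond, lower on slide 2 than on slide 1.

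The arrays of 18 members lay wholly below those of wild type and the arrays of 4 wholly above, where 26.2% and 14.9% of all genes did. Of the 18, 7 were early and 4 late. Members with a mean signal above 5000 lay wholly below in 9 of 35 cases, where 1174 of 4643 such genes did, and members with a lower signal in 9 of 19, where 121 of 297 such genes did.

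The arrays labelled Δpka1 were also compared with Δcgs1, the strain with the opposite disruption, and both carry ura4. This comparison shares the arrays labelled Δpka1 with the one above. Again isp3 was higher (log2 3.52, SE 0.22, adjusted p = 0.000193 by limma), at 3.20 on slide 1 and 3.83 on slide 2. It was the only member called higher, and 4 were called lower, where 10.3% of all genes were called (4.37% higher and 5.97% lower). The 4 were spo14 (-0.90, SE 0.11, adjusted p = 0.00412), mcp7 (at least 1.42-fold, -0.64, SE 0.14, adjusted p = 0.0361), meu43 (-0.46, SE 0.10, adjusted p = 0.0375) and meu10.

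Signal for meu10 was 2825 and 2507 in Δcgs1, the only strain in which it lay above the background limit on both arrays, against 1444 and 1225 on the arrays labelled Δpka1. The fall was at least 1.07-fold from the limit and 2.001-fold as measured (log2 -1.001, SE 0.14, adjusted p = 0.00593 by limma), with -0.97 and -1.03 on the slides. The random-sequence control differed by -0.17 and -0.26. The call was lost in 1 of 16 alternatives, without replicate 1 of Δcgs1 (adjusted p = 0.0503). Signal for meu43 was 11951 and 12926 in Δcgs1 and 8705 and 9409 on the arrays labelled Δpka1, with wild type between them at 10335 and 11450. The call of meu43 was lost in 8 of 17 alternatives (adjusted p from 0.000866 to 0.249) and that of mcp7 in 7 of 17 (from 0.000603 to 0.186), while those of isp3 and spo14 held in all 17 (spo14 from 3.95e-05 to 0.0345).

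With slide as a block, 17 members were called lower and 1 higher against Δcgs1, where 41.3% of all genes were called (12.5% higher and 28.8% lower). Of these 17, 6 were early genes: the cohesin genes rec8 (-0.53) and rec11 (-0.50, at least 1.23-fold), mcp3 (-0.53), mcp7, dmc1 (-0.47) and mek1 (-0.38). Signal for rec8 was 2968 and 2715 in Δcgs1 and 2143 and 1792 on the arrays labelled Δpka1, a fall of at least 1.14-fold. Signal for mek1 was 4337 and 4444 in Δcgs1 and 3301 and 3424 on the arrays labelled Δpka1, all above the limit. The late genes among the 17 were meu10, spo3 (-0.35), which is needed for the forespore membrane, and spo15 (-0.20). The others were spo14, spo9 (-0.41), meu1 (-0.45, at least 1.05-fold), meu7 (-0.32), meu18 (-0.42), meu27 (-0.26), meu34 (-0.42) and meu43. The adjusted p with the block lay between 0.000311 (spo14) and 0.0471 (meu1).

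The median of early genes against Δcgs1 was -0.25 (-0.20 and -0.26 on the slides), that of late genes -0.12 and that of all genes -0.07. Of the early genes, 11 of 18 had both arrays labelled Δpka1 below both of Δcgs1 and 0 had both above. Among all genes, 33.9% lay wholly below and 14.3% wholly above, and among those with a mean signal up to 5000, where 12 of the 18 early genes lie, 166 of 297 lay wholly below. The early genes with a mean signal up to 5000 had a median of -0.35, and all genes with such a signal -0.21. Quantile normalization brought the median of the early genes to -0.06 and cyclic loess normalization to -0.07.

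Against wild type, Δcgs1 gave 0 calls among the members in either direction by limma, also with slide as a block, where 0.142% of all genes were called (0.081% higher and 0.0607% lower), and 0.83% with the block (0.648% and 0.182%). At an unadjusted p below 0.05 there was 1 member, where 115 of 4940 genes had such a p. It was meu10, at 2825 and 2507 in Δcgs1 and 1943 and 2074 in wild type (log2 0.41, SE 0.14, adjusted p = 1, and 0.191 with the block). Its arrays did not overlap. The medians were 0.05 for early genes, 0.11 for late genes and 0.02 for all genes. Within slides the early median was 0.22 on slide 1 and -0.12 on slide 2, and the late median 0.19 and 0.04. The random-sequence control showed 0.09 and -0.15. The arrays of 5 members lay wholly above those of wild type and of 3 wholly below, where 8.02% and 4.53% of all genes did. Signal for isp3 overlapped with wild type (log2 -0.05).

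Against wild type, Δppt1, which lacks an enzyme of coenzyme Q synthesis, gave 0 calls among the members by limma, where 1.01% of all genes were called (0.688% higher and 0.324% lower). With the unadjusted p below 0.05 there were 2, rec27 (at least 1.14-fold lower, log2 -0.40) and spo12 (log2 -0.51), where 451 of 4940 genes had such a p. With slide as a block, 2 members were called lower and 0 higher, where 12.9% of all genes were called (5.53% higher and 7.35% lower). One was spo12, which went from 7821 and 8928 to 6425 and 5385 (adjusted p = 0.162, and 0.0433 with the block). The other was meu7, from 7813 and 11311 to 6444 and 8344 (log2 -0.36, adjusted p = 0.926, and 0.0149 with the block). The arrays of spo12 did not overlap between the strains, while those of meu7 did. Signal for isp3 was 2567 and 1712 in Δppt1, below both wild-type arrays, and was not called (log2 -0.51).

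The early genes of Δppt1 had a median of -0.12 against wild type, with 0.10 on slide 1 and -0.31 on slide 2, while the random-sequence control showed -0.09 and -0.39. The part of background in that shift was not tested. The median turned to 0.03 with quantile normalization. The median of late genes was -0.03 and that of all genes -0.02. The arrays of 10 members lay wholly below those of wild type, 6 of them early, and of 3 wholly above, where 14.2% and 10.4% of all genes did.

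Across the 4 strains together, a moderated F-test called 3 members, isp3, spo14 and meu10, where 8.83% of all genes were called. In the blocked fit it called 18 members, where 45.7% of all genes were called.

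Other genes of the pathway, from lists written from general knowledge, were read in the same fits. Of 14 regulators of meiotic transcription, 3 rose and 1 fell on the arrays labelled Δpka1 against wild type (5 and 1 with the block, which added rst2 and rep1). Over all genes, 4.33% were called higher and 4.13% lower, and 14.7% and 24% with the block. Signal for mei2 was 8875 and 9788 in wild type, 59554 and 57790 on the arrays labelled Δpka1, 3998 and 3792 in Δcgs1, and 5852 and 3980 in Δppt1. Signal for ste11 was 19746 and 23706 in wild type, 50680 and 55805 on the arrays labelled Δpka1, 23878 and 26922 in Δcgs1, and 11223 and 15919 in Δppt1. On the arrays labelled Δpka1 both genes lay above all other arrays (log2 2.65, SE 0.18, adjusted p = 0.000263 for mei2, and 1.30, SE 0.18, adjusted p = 0.00771 for ste11, by limma). For mei2, the slide 1 array labelled Δpka1 lay within 10% of the highest value, where differences are compressed. The kinase gene pat1 rose by 0.50 (SE 0.10, adjusted p = 0.0305), and atf31, a gene of a bZIP-type transcription factor, fell by 0.55 (SE 0.11, adjusted p = 0.0332).

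The regulators mei3 and mei4 were not called on the arrays labelled Δpka1 against wild type. Signal for mei3, which encodes the inhibitor of Pat1, was 2479 and 3129 in wild type and 2124 and 1507 on the arrays labelled Δpka1. The latter lay at or below the background limit, and so did the wild-type array on slide 1. No fold is therefore given (log2 -0.64, SE 0.23, adjusted p = 0.155 by limma). Signal for mei4 was 3003 and 3898 in wild type, 3041 and 3368 on the arrays labelled Δpka1, 3728 and 3489 in Δcgs1, and 3181 and 2905 in Δppt1, and these ranges overlapped (log2 -0.10, SE 0.14, adjusted p = 0.803 on the arrays labelled Δpka1). Of 21 other genes of recombination and meiotic chromosomes, 0 were called by limma on the arrays labelled Δpka1, 0 had an unadjusted p below 0.05, and their median was 0.01. With slide as a block 3 were higher and 4 lower. Of 17 other sporulation genes 2 rose, mok13 (0.68, SE 0.16, adjusted p = 0.0487) and sst4 (0.51, SE 0.11, adjusted p = 0.0385), and with the block 5 were higher and 1 lower. For both lists, the shares over all genes were 4.33% higher and 4.13% lower, and 14.7% and 24% with the block.

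Of the 4 P-cell mating genes, 3 rose on the arrays labelled Δpka1: map2 (2.25, SE 0.18), map1 (1.72, SE 0.16) and map3 (0.97, SE 0.17). In the blocked fit map4 was called too (0.61, adjusted p = 0.142, and 0.00478 with the block). Of 5 M-cell genes, 1 rose, mam3 (0.61, SE 0.12), where 4.33% of all genes were called higher. Adjusted p for these 4 lay between 0.000598 and 0.0238. Against Δcgs1, the arrays labelled Δpka1 had the same counts for the regulators (3 higher, 1 lower) and the P-cell genes (3 higher), and 0 calls among the other recombination and sporulation genes, of which 2 each had an unadjusted p below 0.05. The blocked fit called 5 regulators higher and 3 lower, 4 P-cell genes higher, 1 recombination gene higher and 6 lower, and 4 sporulation genes higher and 3 lower. Of the 5 M-cell genes, 0 were called against Δcgs1 without the block, and 1 was higher and 1 lower with it. The shares of all genes against Δcgs1 were 4.37% higher and 5.97% lower, and 12.5% and 28.8% in the blocked fit.

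In Δcgs1 and Δppt1 against wild type, 0 genes of these 5 lists were called by limma, where 0.142% and 1.01% of all genes were called. In Δcgs1, 1 regulator, mei2 (log2 -1.26, SE 0.18, adjusted p = 0.109, and 0.0566 with the block), and 1 sporulation gene, sst4 (log2 0.27), had an unadjusted p below 0.05, and 0 were called with the block. In Δppt1, 3 regulators, 2 P-cell genes and 1 sporulation gene had an unadjusted p below 0.05. Of all 4940 genes, 115 had such a p in Δcgs1 and 451 in Δppt1. With the block, 2 regulators were higher and 3 lower, among them mei2 (log2 -0.95, adjusted p = 0.0793, and 0.0270 with the block) and ste11 (log2 -0.69, adjusted p = 0.218, and 0.0144 with the block). With the block, 1 recombination gene was also higher and 2 lower, and 1 sporulation gene was higher. Of all genes, 5.53% were higher and 7.35% lower in Δppt1 with the block.

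The gene isp3 was read beside its neighbours in the order of the reference table, of which 7 within 4 places were measured. They were looked at and named after their values were seen. On the arrays labelled Δpka1, ght3, a hexose transporter gene 4 places away, rose at least 8.19-fold, from 1654 and 1712 to 19668 and 21272 (log2 3.60, SE 0.16, adjusted p = 4.29e-05 by limma). The gene pfl8 next to isp3 fell (log2 -1.25, SE 0.11, adjusted p = 0.000963), and it also fell in Δcgs1 (-1.09, adjusted p = 0.0250), where isp3 was not called. The nearest gene on the other side, hhy1, was at 0.56 (adjusted p = 0.0876, and 0.00721 in the blocked fit), and against Δcgs1 it was called higher in both fits (0.94, adjusted p = 0.0149). In Δppt1, shu1 (log2 2.54) and str3 (log2 3.45), both genes of iron or haem uptake, rose, while isp3 was not called.

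**Figure D5:**
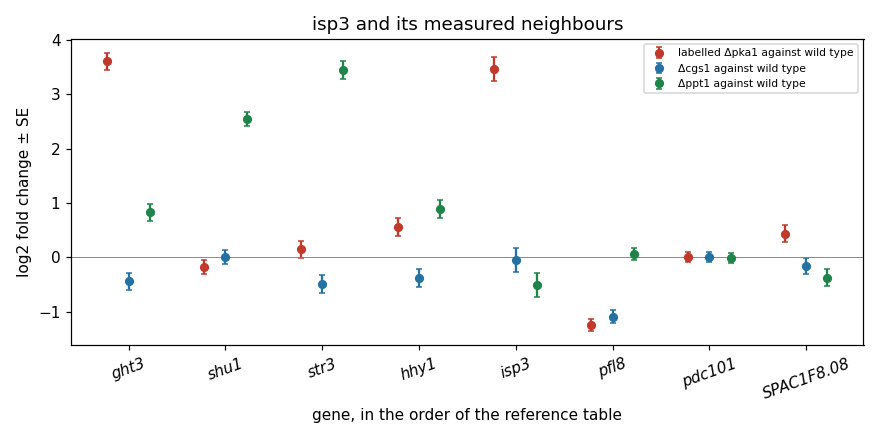
Log2 fold change against wild type (points, with bars of 1 SE) of isp3 and its measured neighbours in the order of the reference table, for the arrays labelled Δpka1, Δcgs1 and Δppt1. On the arrays labelled Δpka1, ght3 and isp3 are high, hhy1 next to isp3 is at 0.56 and pfl8 is below 0, while shu1 and str3 are high in Δppt1.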

How the data were processed

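Cy3-labelled double-stranded cDNA of total RNA was hybridised, per the labels' protocols. The deposited tables give 1 linear intensity per gene and array, with the count of probes behind it, per the file headers. The authors' probe summary and array normalization are not given in the sources used. The random-sequence control, of 3025 probes, was left out of the tests. Locus tags were paired with symbols through the RefSeq table (4916 of 4940 genes matched, 4150 with a symbol). No positions are given, because the files do not state a build, and no sequences were used here.

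Deposited intensities were taken to log2. Comparisons used limma 3.58.1 in R 4.3.3: 1 mean per strain over 8 arrays (4 residual degrees of freedom), two-sided moderated tests, and Benjamini-Hochberg adjustment over 4940 genes per comparison, with a call at adjusted p below 0.05. Slide as a block left 3 residual degrees of freedom. The titles put arrays of the same replicate number on the same slide, and their deviations from strain means correlated across genes for each of the 6 strain pairs (Pearson's r 0.351 to 0.690), so blocked values stand beside results they change. The 2 arrays of a strain limit the precision: log2 fold changes had a median SE of 0.143, and 0.0589 with the block. On simulated data for the arrays labelled Δpka1 against wild type (4940 genes), 22.4% of genes changed by 0.5 on the log2 scale were recovered without the block, 78.4% of those changed by 1 and 99.6% of those changed by 2. With the block, 80.4%, 95.2% and 100% were recovered. The simulated noise and slide shift were taken from the blocked fit, so these rates need not hold for the real arrays. Folds read "at least" where 1 strain lay at or below the background limit on both arrays. Such a fold sets the mean log2 signal of the brighter strain against the limit and takes no account of the spread between arrays. The members, lists, classes and alternatives were chosen with earlier results of these data known. Named members are those called with or without the block, those at least 2-fold from wild type, the highest and lowest of each class, the targeted genes, ste11, mei2, mei3, mei4 and up to 4 called genes of each pathway list. Genes beyond that rule were named after their values were seen. Alternatives were the slide block, median scaling, quantile and cyclic loess normalization, an offset of 1000, a filter on low signal, a trended robust fit, a fit of the 2 strains alone, each array left out and, chosen after seeing the data, subtraction of the random-sequence control (floor 100). The planned description of promoter motifs was not run.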

Additional observations from a re-analysis of the deposited data

How the results depend on the processing

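The number of called members changed with the processing, and so did the number over all genes. Against wild type, members called higher on the arrays labelled Δpka1 numbered 1 as reported, 2 with the slide (replicate block), 2 with median scaling, 5 with quantile and 6 with cyclic loess normalization. Members called lower numbered 3 as reported, 11 with the replicate block, 8 with median scaling, 11 with quantile and 8 with loess normalization, 1 with the offset and 1 with the 2 strains alone, and from 0 to 6 with 1 array left out. Over all genes the higher and lower calls numbered 214 and 204 as reported, 724 and 1184 with the replicate block, 596 and 843 with median scaling, 786 and 1023 with quantile and 905 and 828 with loess normalization. They numbered 216 and 191 with the offset and 147 and 89 with the 2 strains alone. Against Δcgs1, the higher calls went from 1 to 2 with median scaling, 6 with quantile and 5 with loess normalization. The lower calls went from 4 to 17 with the replicate block, 15 with median scaling, 14 with quantile, 14 with loess normalization and 2 with the control subtracted, and from 1 to 10 with 1 array left out. Over all genes these were 216 and 295 as reported, 619 and 1422 with the replicate block, 561 and 874 with median scaling, 788 and 1056 with quantile and 883 and 851 with loess normalization. With the control subtracted they were 183 and 172. Without an array of wild type, that strain stood on 1 slide, and the median of all genes on the arrays labelled Δpka1 moved from -0.04 to -0.15 or 0.05. In Δcgs1 against wild type, loess normalization gave 1 higher and 1 lower call and quantile normalization 1 lower. Of all 4940 genes, 43 were higher and 20 lower with loess normalization, and 44 and 25 with quantile normalization. In Δppt1 against wild type, quantile normalization gave 1 higher and 4 lower, loess normalization 4 lower and the replicate block 2 lower. Of all 4940 genes, 322 were higher and 376 lower with quantile normalization, 316 and 326 with loess normalization, and 273 and 363 with the replicate block. Of 33 member results followed through the alternatives, 1 reversed: spo15 against Δcgs1, from -0.20 to 0.00877 without replicate 2 of Δcgs1 (from -0.417 to 0.00877 with 1 array left out). Over these 33 results and their alternatives (557 values), 38 calls were lost and 83 gained. The 33 were chosen because they were called without or with the block. The block is also 1 of the alternatives, so part of the gains was fixed by that choice. Calls of members outside these results were not counted there. Signals at or below 2497, a limit set by 1 reading of ppt1 in Δppt1, were taken here as not told from background, which limits 17 of 54 members.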

Other observations

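A further 15 genes on the arrays carry a rec, meu, spo or mcp name only as a synonym and were not counted as members. Among them mpf2, also named mcp2, read 24880 and 31259 in wild type, 12573 and 14976 on the arrays labelled Δpka1, 28770 and 30565 in Δcgs1, and 19738 and 20458 in Δppt1. The arrays labelled Δpka1 lay below all others (log2 -1.02, SE 0.14, adjusted p = 0.00659 by limma against wild type, and -1.11, adjusted p = 0.00422 against Δcgs1). In Δppt1 its log2 fold change was -0.47 (adjusted p = 0.291, and 0.0253 in the blocked fit).

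The gene rep1, which also has the name rec16 and encodes a factor of transcription in premeiotic DNA synthesis, read 2601 and 3674 in wild type and 4627 and 4589 on the arrays labelled Δpka1, without overlap (log2 0.58, SE 0.16, adjusted p = 0.0764 by limma, and 0.0290 in the blocked fit).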
